A study of Mus musculus with 2 samples.

Results

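The neurexins, neuroligins and Cadm proteins are cell adhesion molecules of the synapse, and 9 of their genes were followed here among the 32285 genes counted in the ventral tegmental area (VTA) of adult mice: Nrxn2, Nrxn3, Nlgn1, Nlgn2, Nlgn3, Cadm1, Cadm2, Cadm3 and Cadm4. They were taken by gene symbol, and each symbol matched 1 row of both count tables. The design text calls the assay single-nucleus RNA-seq, on the 10x Genomics platform, and the labels name a tissue dissociation kit; 1 library was made per group. The WT library came from wild-type mice. The CCI library came from mice with chronic neuropathic pain, caused by chronic constriction injury, a ligation of the left sciatic nerve, while the right nerve was exposed without ligature. The labels do not give the strain or sex of the mice, how many were pooled, or the hemisphere sampled. There was 1 library per group, so no test between the groups was possible, and a difference between them describes these 2 libraries.

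Neurexins are presynaptic receptors that reach across the cleft to neuroligins and to several other postsynaptic or secreted partners. Nlgn1 is found mainly at excitatory synapses, Nlgn2 at inhibitory ones and Nlgn3 at both. The Cadm proteins, also called SynCAMs or nectin-like molecules, are immunoglobulin-domain molecules that bind each other across synapses and between axons and myelinating glia. Dopaminergic neurons of the VTA project to the striatum and cortex, and receive GABAergic input from within and around the VTA.

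The WT library kept 12054 nuclei with a median of 973 UMIs, and the CCI library 12773 nuclei with a median of 3460 UMIs, so levels are given as CPM, the UMIs of a gene scaled to the same total in every class. Of the kept barcodes, 37 occurred in both libraries. Clusters were made without the 9 genes and without 71 partner genes, and were named from markers. There were 827 WT and 382 CCI dopaminergic neurons, in which the dopamine transporter gene Slc6a3 stood at 654 and 645 CPM against 108 and 48.8 CPM over all nuclei. The remaining neurons were grouped by their summed transmitter transcripts into GABAergic neurons (Gad1, Gad2 and Slc32a1 at least 2 times the vesicular glutamate transporter genes of the Slc17a family; 1341 WT and 1765 CCI nuclei), Slc17a-high neurons (the reverse; 1493 and 2876) and mixed neurons (neither; 2162 and 1019). Together with unnamed subclusters these make up the other neurons, 5068 WT and 6231 CCI nuclei. Glial classes were astrocytes (1263 and 1481), oligodendrocytes (3794 and 3691), oligodendrocyte precursors (538 and 383), committed oligodendrocyte precursors (217 and 22) and microglia (232 and 372). Every interval below is a 95% interval that covers counting error only and not the spread between animals.

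Of the Cadm family, Cadm2 was over 1.5-fold higher in dopaminergic than in other neurons in both libraries, and Cadm1 and Cadm4 over 1.5-fold lower. Cadm3 was over 1.5-fold lower in WT only, and no window was found for Cadm1. The 250 bases before the RefSeq starts (GRCm38.p6) of Cadm2 and Cadm4 are shown. The Cadm2 window lies at chr16:67620909-67621158 on the minus strand, and the Cadm4 window at chr7:24481773-24482022 on the plus strand. Both are printed 5′ to 3′, and capitals mark the GC box GGGCGG, the CCAAT box CCAAT and the E-box CACGTG, each searched on both strands together with the TATA box TATAAA.
Cadm2: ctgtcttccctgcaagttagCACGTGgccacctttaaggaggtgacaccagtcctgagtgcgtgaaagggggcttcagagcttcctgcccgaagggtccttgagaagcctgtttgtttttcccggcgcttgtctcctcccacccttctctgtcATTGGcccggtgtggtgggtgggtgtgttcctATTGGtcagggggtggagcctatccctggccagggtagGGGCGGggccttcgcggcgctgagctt
Cadm4: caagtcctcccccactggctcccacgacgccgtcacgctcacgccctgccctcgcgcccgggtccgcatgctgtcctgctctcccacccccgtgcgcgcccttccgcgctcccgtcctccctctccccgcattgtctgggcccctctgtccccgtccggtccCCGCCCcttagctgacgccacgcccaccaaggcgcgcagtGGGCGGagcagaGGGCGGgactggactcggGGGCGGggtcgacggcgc
The Cadm2 window held 1 GC box, 2 CCAAT boxes and 1 CACGTG, and 10 CpG dinucleotides. The Cadm4 window held 4 GC boxes and no other of these motifs, and 30 CpG dinucleotides. Over 32841 promoter windows of this length, the median was 6 CpG dinucleotides, 94.1% held fewer than the Cadm4 window, and the GC box, CCAAT box, CACGTG and TATA box occurred in 32.7%, 33.9%, 6.02% and 12.4%. These matches describe the letters only. Windows were found for 6 of the 9 genes.

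In the annotation used for coordinates (mm10, GENCODE vM21), the genes differ widely in length. Cadm2 covers 965.5 kb at chr16:66655421-67620908 on the minus strand, Nrxn3 1612.1 kb at chr12:88722876-90334935 on the plus strand, and Nlgn1 906.2 kb at chr3:25426215-26332460 on the minus strand. Cadm1 covers 327.5 kb at chr9:47530173-47857637 on the plus strand, and Nrxn2 125.4 kb at chr19:6418731-6544169 on the plus strand. The short genes are Cadm3 (34.4 kb, chr1:173333258-173367695, minus strand), Nlgn3 (26.8 kb, chrX:101299168-101325963, plus strand), Cadm4 (22.5 kb, chr7:24482023-24504539, plus strand) and Nlgn2 (14.7 kb, chr11:69823122-69837784, minus strand). Whether intronic reads were counted is not given in the sources used here, so levels are compared between classes for each gene and never between genes. Exons of Cadm2, Nlgn1 and Nrxn2 overlap counted genes on the other strand (1700010K23Rik, A830092H15Rik, and Gm14964 with Slc22a12, in that order). Reads there cannot be told apart without the strand setting. Exons of Cadm3 overlap the counted gene Ackr1 on the same strand, where no strand setting can separate the reads. Nlgn2, Cadm1 and Cadm4 have no overlap of either kind.

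**Figure D1:**
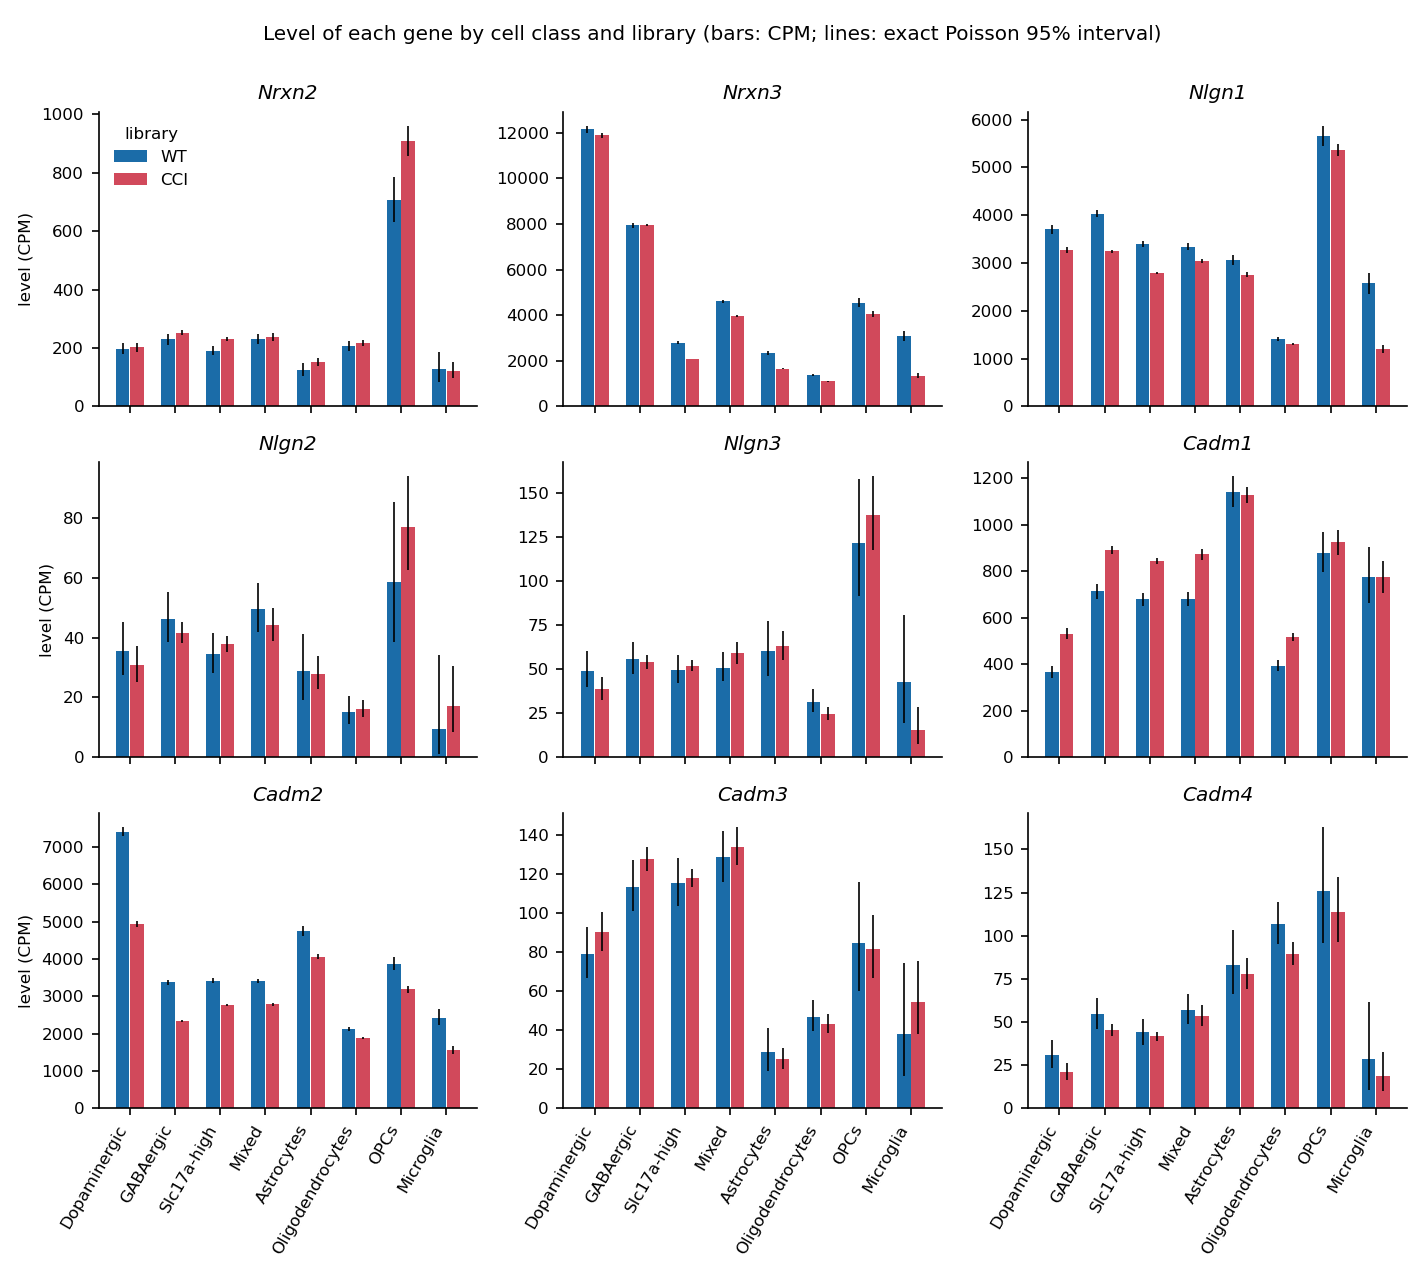
Level of each gene in CPM on the vertical axis, by cell class on the horizontal axis, in the WT (blue) and CCI (red) libraries; lines are exact Poisson 95% intervals and each panel has its own scale. Of the 8 classes shown, Nrxn3 and Cadm2 stand highest in dopaminergic neurons and Cadm1 in astrocytes. Nrxn2, Nlgn1, Nlgn2, Nlgn3 and Cadm4 stand highest in oligodendrocyte precursors (OPCs).

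Nrxn3, a presynaptic neurexin, separated the neuron groups more than any other of the 9 genes. Dopaminergic neurons reached 12155 CPM in the WT library and 11889 CPM in the CCI library. In GABAergic neurons it stood at 7937 and 7957 CPM, and in Slc17a-high neurons at 2800 and 2078 CPM. Dopaminergic neurons were highest and Slc17a-high neurons lowest of the 4 neuron groups in both libraries, and no interval of these groups overlapped within a library. Dopaminergic over GABAergic neurons gave log2 ratios of 0.61 (0.59 to 0.64) and 0.58 (0.56 to 0.60), just either side of 1.5-fold, and dopaminergic over Slc17a-high neurons 2.12 and 2.52. GABAergic neurons held 2.83 and 3.83 times the Nrxn3 of Slc17a-high neurons, and no other of the 9 genes was past 1.5-fold between these groups, in either direction. Over all genes tested between them, 6.38% were that much higher and 9.22% lower in WT, and 5.48% and 9.69% in CCI. Over 26 WT neuron subclusters of at least 20 nuclei, Nrxn3 ran from 1390 CPM in a Slc17a-high subcluster to 12393 CPM in a dopaminergic one. Over 32 CCI subclusters it ran from 961 to 12635 CPM, again from a Slc17a-high to a dopaminergic subcluster. Slc17a-high subcluster 30, with 50 WT and 31 CCI nuclei, was high for its group at 7154 and 5294 CPM. It was the highest of 13 WT and 14 CCI subclusters of its group, while the 8 WT and 9 CCI GABAergic subclusters spanned 6839 to 11890 and 6254 to 10098 CPM. Slc17a6 in subcluster 30 was low for the group, at 9.96 and 25.6 CPM against 196 and 244 CPM over Slc17a-high neurons.

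In glia, Nrxn3 was at 4542 (WT) and 4050 CPM (CCI) in oligodendrocyte precursors, which is 72.7% and 84.2% of the level over all neurons. The 8 neuron markers, summed, stood there at 27.2% and 25.5% of their level in neurons, with single markers at up to 75.0% and 61.2%. The Nrxn3 share in precursors was thus inside the range of the single markers in WT and above it in CCI. In oligodendrocytes Nrxn3 was at 21.7% and 22.9% of the neuron level, inside the 12.4% to 42.8% (WT) and 13.2% to 44.7% (CCI) spanned by the single neuron markers there, and so not above their range.

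Nrxn2, the other neurexin measured here, had its peak outside neurons. Oligodendrocyte precursors held 706 CPM in WT and 908 CPM in CCI, against 213 and 238 CPM over all neurons. That is 332% and 381% of the neuron level, far past the share of any neuron marker there. Nuclei were also thinned to 1000 UMIs each, with shallower nuclei left out, which kept 125 of 538 WT precursors, 46 of 232 WT microglia and 199 of 1263 WT astrocytes. At that depth, 53.6% of 125 WT and 63.2% of 383 CCI oligodendrocyte precursors held a Nrxn2 UMI, against 19.1% and 21.9% of neurons and 8.70% and 9.81% of microglia. Before thinning, the precursors had median depths of 808 and 3037 UMIs. Among neurons Nrxn2 was even: the groups ran from 191 to 231 CPM in WT and from 202 to 252 CPM in CCI, and most neighbours in that order overlapped.

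Among the postsynaptic neuroligins, Nlgn1 was also highest in oligodendrocyte precursors, at 5655 CPM in the WT and 5368 CPM in the CCI library. Dopaminergic neurons held 3701 and 3266 CPM, and the 4 neuron groups spanned only 3345 to 4035 CPM in WT and 2796 to 3266 CPM in CCI. Astrocytes held 3061 and 2756 CPM, 85.3% and 92.2% of the neuron level, while the summed neuron markers were there at 15.1% and 12.9%. Oligodendrocytes were low at 1414 and 1303 CPM. Among the neuron subclusters, GABAergic subcluster 10 held the highest Nlgn1 level in both libraries, 6176 CPM in WT and 5251 CPM in CCI. Its leading genes include Npas3, Zfpm2 and Pax5. The lowest level in both lay in Slc17a-high subcluster 25, at 1826 and 1082 CPM.

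Nlgn2, the neuroligin of inhibitory synapses, and Nlgn3 were sparsely counted. Nlgn2 stood at 41.7 and 39.6 CPM over all neurons, and its WT levels in GABAergic neurons (46.2 CPM, 38.4 to 55.1) and Slc17a-high neurons (34.5 CPM, 28.3 to 41.7) had overlapping intervals. Oligodendrocytes were lower, at 15.3 and 16.1 CPM. Nlgn3 stood at 122 and 138 CPM in oligodendrocyte precursors against 51.5 and 51.7 CPM over all neurons. At 1000 UMIs per nucleus, 18 of 125 WT and 46 of 383 CCI precursors held a Nlgn3 UMI, against 5.45% and 5.33% of neurons. Of the 9 genes, 5 were thus highest in oligodendrocyte precursors among the 8 classes compared, in both libraries: Nrxn2, Nlgn1, Nlgn2, Nlgn3 and Cadm4. For Nlgn2 in WT and for Cadm4 in both libraries the next class had an overlapping interval. Cadm4 lost that place in WT at 1000 UMIs per nucleus, where precursors were at 72 instead of 126 CPM, with a mean of 0.0720 UMIs per nucleus against 0.126 in oligodendrocytes and 0.0905 in astrocytes, and also without doublet removal.

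Among the 8 classes compared, Cadm2 had its highest level in dopaminergic neurons. The level was 7412 CPM (7290 to 7535) in the 827 WT and 4938 CPM (4865 to 5011) in the 382 CCI dopaminergic neurons, against 3397 CPM (3359 to 3436) and 2548 CPM (2534 to 2564) in the other neurons. In both libraries the order was dopaminergic neurons, astrocytes (4760 and 4059 CPM), oligodendrocyte precursors (3871 and 3183 CPM) and then the other neuron groups, with oligodendrocytes and microglia last. GABAergic, mixed and Slc17a-high neurons differed little in WT, at 3372, 3411 and 3416 CPM, while in CCI GABAergic neurons were lower, at 2339 against 2787 and 2760 CPM. Committed oligodendrocyte precursors, too few in CCI to be ranked, held 6493 CPM in 217 WT nuclei and 6183 CPM in 22 CCI nuclei.

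Dopaminergic neurons held 2.18 times the Cadm2 of other neurons in WT (log2 ratio 1.13, 1.10 to 1.15) and 1.94 times in CCI (0.95, 0.93 to 0.98). Against GABAergic neurons alone the log2 ratios were 1.14 and 1.08, and against Slc17a-high neurons 1.12 and 0.84. In the first of these comparisons, 2 of the 9 genes in WT and 1 in CCI were over 1.5-fold higher in dopaminergic neurons and 2 lower in each library, where all genes gave 12.7% and 11.2% higher and 18.8% and 19.9% lower. In the second, 2 were higher in each library, with 1 lower in WT and 2 in CCI, where all genes gave 11.2% and 10.5% higher and 18.3% and 21.2% lower. A transcript gate, which set neurons with 2 or more UMIs summed over Slc6a3, Th, Ddc and Slc18a2 against neurons with none, gave Cadm2 ratios of 1.04 in WT and 0.45 in CCI, the latter under 1.5-fold. In CCI it took 986 neurons, and 368 of them belonged to the dopaminergic clusters. At 1000 UMIs per nucleus, the median dopaminergic neuron held 7 Cadm2 UMIs in WT and 4 in CCI, against 3 and 2 in other neurons. The share with at least 1 UMI was 97.7% (96.4 to 98.7) of 744 WT and 90.8% (87.5 to 93.5) of 382 CCI dopaminergic neurons, against 92.0% of 4030 and 82.0% of 6126 other neurons. Microglia, which stood next to last or last in Cadm2 level, gave 89.1% of 46 WT and 66.8% of 316 CCI nuclei, so the share with a UMI separates the classes less well than the count. Unthinned, the shares were 97.9% and 99.7% in dopaminergic and 94.8% and 98.6% in other neurons, at median depths of 2113 and 8692.5 UMIs against 1558 and 6169 UMIs, and 594.5 and 1448.5 UMIs in microglia.

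**Figure D2:**
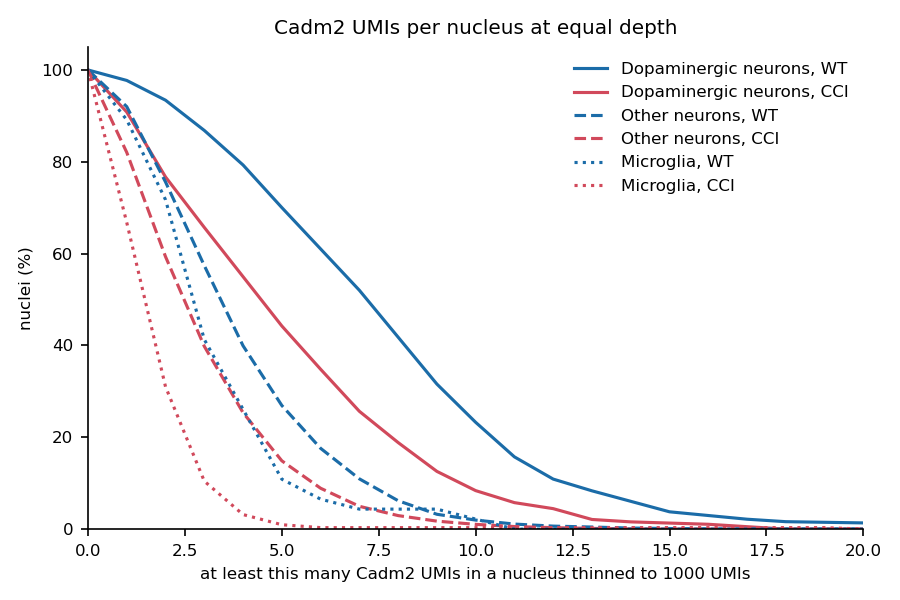
Percent of nuclei (vertical axis) with at least the number of Cadm2 UMIs on the horizontal axis, after thinning to 1000 UMIs, in dopaminergic neurons (solid), other neurons (dashed) and microglia (dotted) of the WT (blue) and CCI (red) libraries. The dopaminergic curve lies to the right of the curve of other neurons in each library, with medians of 7 against 3 UMIs in WT and 4 against 2 in CCI.

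The excess of Cadm2 lay mainly in dopaminergic neurons rich in Sox6, a transcription factor typical of dopaminergic neurons of the substantia nigra and lateral VTA. Dopaminergic subclusters were split by whether Sox6 or Calb1 had the higher level, a split made after their values had been seen. The Sox6-rich set (492 WT and 261 CCI nuclei; Sox6 at 662 and 498 CPM) held 8795 and 5725 CPM of Cadm2, 2.59 and 2.25 times the level of other neurons. The Sox6-poor set (335 and 121 nuclei; Sox6 at 91.7 and 48.8 CPM, Calb1 at 119 and 152 CPM) held 5062 and 2777 CPM, 1.49 and 1.09 times. The log2 ratio of Sox6-rich to Sox6-poor neurons was 0.80 (0.74 to 0.85) in WT and 1.04 (0.98 to 1.10) in CCI. Cadm1 went the other way, at 295 and 452 CPM in the Sox6-rich against 485 and 750 CPM in the Sox6-poor set. Nrxn3 was high in both sets, at 12393 and 12612 CPM in the Sox6-rich and 11751 and 9906 CPM in the Sox6-poor neurons.

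The Sox6-rich set was made of subclusters 6 and 16 and the Sox6-poor set of subcluster 7, so their levels by subcluster rest on the same counts. The Sox6-rich subcluster 6 led all 26 WT subclusters, and subcluster 16, which held 234 CCI nuclei and no WT nucleus, led all 32 CCI subclusters at 5784 CPM. The Sox6-poor subcluster 7 ranked lower: in WT it was passed by subcluster 6 and by GABAergic subcluster 29 (5778 CPM), and in CCI it stood below both Sox6-rich subclusters and below others such as Slc17a-high subclusters 26 (3789 CPM) and 23 (3685 CPM). The lowest CCI level was 649 CPM in unnamed subcluster 28, led by Meis2 and with Sst among its leading genes, which held only 2 WT nuclei. Subcluster 16 exists in 1 library only, so a library difference and a cell type cannot be told apart there.

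**Figure D3:**
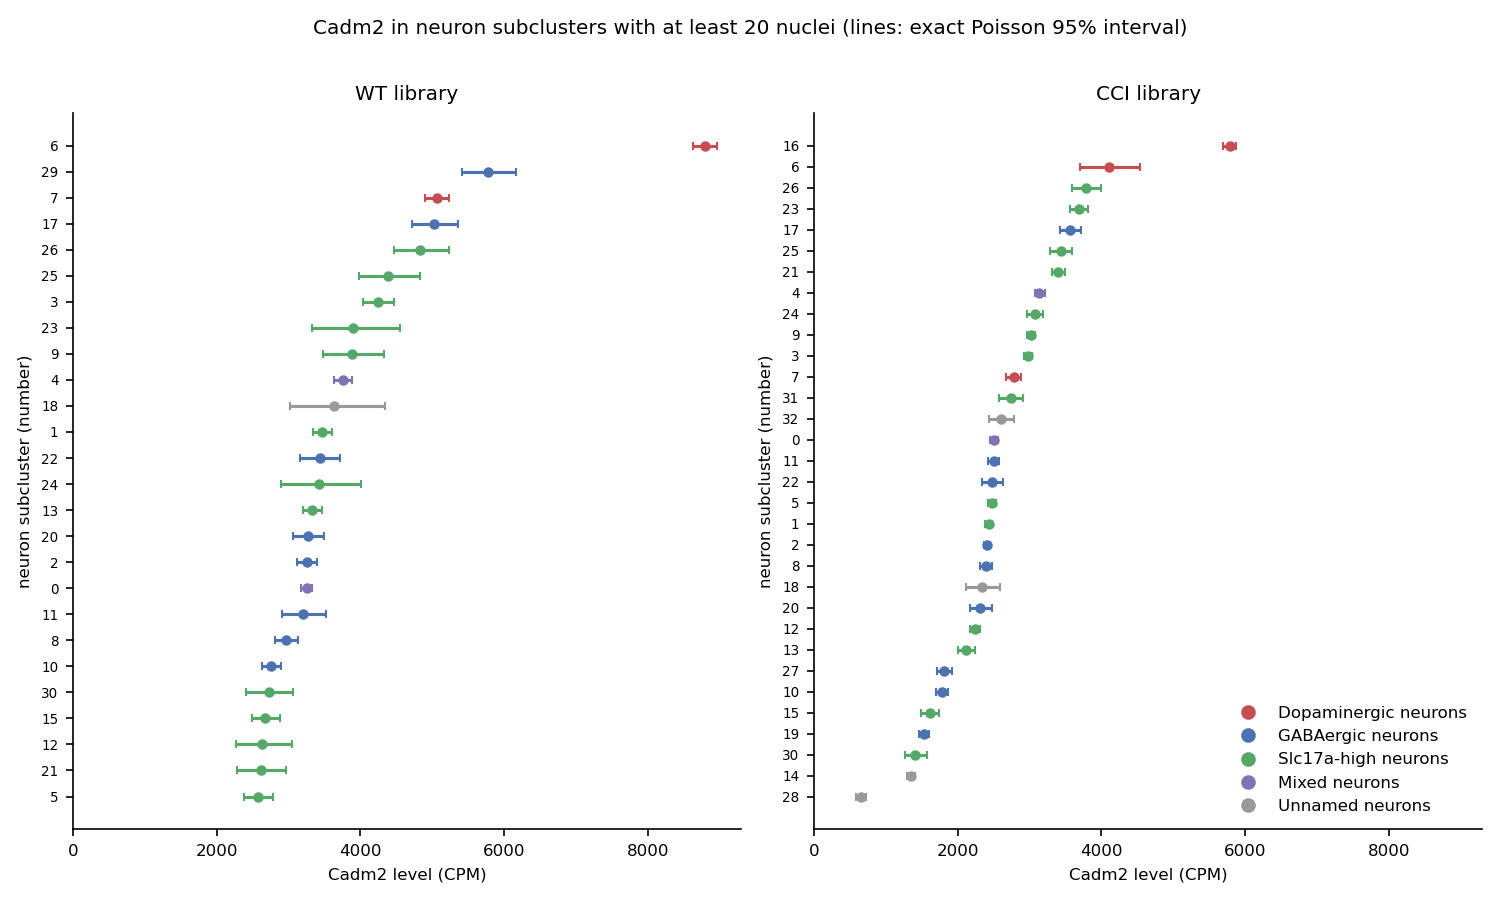
Cadm2 level in CPM (horizontal axis) in each neuron subcluster of at least 20 nuclei (vertical axis, by subcluster number and ordered by level) in the WT (left) and CCI (right) libraries, with exact Poisson 95% intervals and colours for the neuron group. Dopaminergic subclusters 6 (WT, 8795 CPM) and 16 (CCI, 5784 CPM) stand highest, and dopaminergic subcluster 7 lies among the other neurons in CCI.

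Of the 9 genes, 2 were over 1.5-fold higher in dopaminergic than in other neurons, Nrxn3 and Cadm2, in both libraries. Over all genes with at least 20 UMIs, 10.8% of 14756 were that much higher in WT and 11.3% of 18401 in CCI, and 6.21% in both libraries. Over 1.5-fold lower were 3 genes in WT (Cadm1, Cadm3 and Cadm4) and 2 in CCI (Cadm1 and Cadm4), against 22.5% and 23.9% of all genes tested. Among genes longer than 300 kb, as Nrxn3, Cadm2, Nlgn1 and Cadm1 are, 18.1% and 17.7% were higher and 36.6% and 37.3% lower. As shares of 9, the counts of higher genes and the WT count of lower genes lie above those of all genes, and the CCI count of lower genes lies below. Each count rests on 2 or 3 genes and was not tested. The median log2 ratio of the 9 genes was -0.13 in WT and -0.39 in CCI against -0.15 and -0.14 over all genes. Cadm1 had log2 ratios of -0.92 (-1.03 to -0.80) and -0.71 (-0.77 to -0.64), the second at -0.15 with the transcript gate, and Cadm4 of -0.74 (-1.16 to -0.35) and -1.06 (-1.41 to -0.73). Cadm3 crossed the 1.5-fold line in WT alone, at -0.60 (-0.85 to -0.35) against -0.43 (-0.60 to -0.27) in CCI, intervals that overlap. Its WT call was lost, leaving 2 genes lower, without doublet removal, with the transcript gate and with trimmed-mean scaling (smallest ratio -0.46). Nrxn2, Nlgn1, Nlgn2 and Nlgn3 stayed within 1.5-fold in both libraries. Cadm2 and Cadm4 thus differed in sign, as did Nrxn3 and Cadm1.

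**Figure D4:**
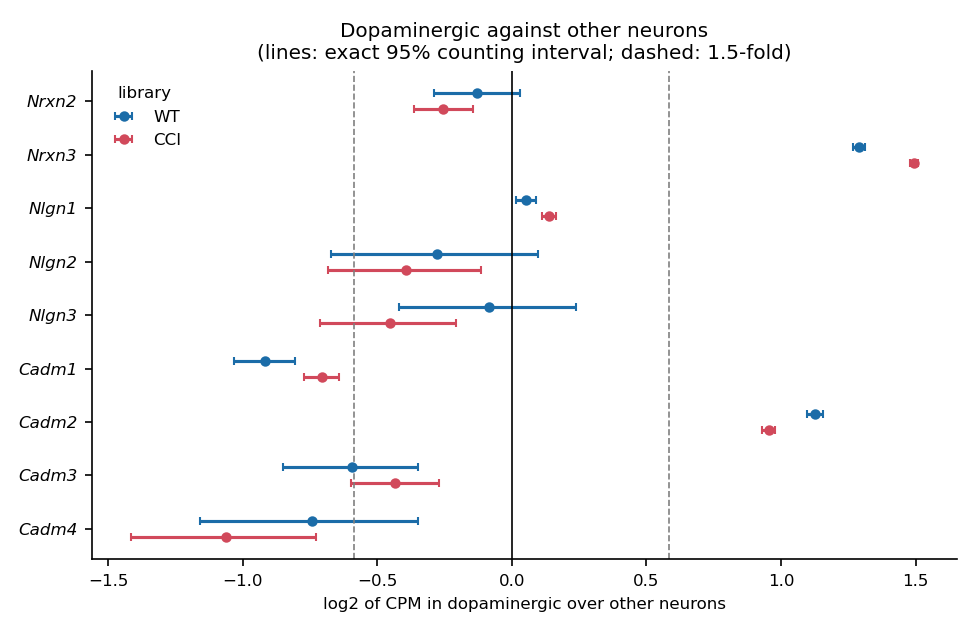
Log2 ratio of the level in dopaminergic over other neurons (horizontal axis) for each gene (vertical axis) in the WT (blue) and CCI (red) libraries; lines are exact 95% counting intervals, dashed lines 1.5-fold. Nrxn3 and Cadm2 lie past 1.5-fold higher, and Cadm1 and Cadm4 past 1.5-fold lower, in both libraries.

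The other Cadm genes differed between neurons and glia. Among the 8 classes compared, Cadm1 was highest in astrocytes, at 1140 and 1127 CPM. It was lowest in dopaminergic neurons (365 and 532 CPM) and oligodendrocytes (394 and 516 CPM). Committed oligodendrocyte precursors, which were not ranked, passed astrocytes at 1000 UMIs per nucleus. Mean Cadm1 there was 1.40 UMIs in 123 WT and 1.77 UMIs in 22 CCI nuclei, against 1.16 and 1.09 in astrocytes. Cadm3 was higher in neurons, at 112 and 119 CPM, than in astrocytes, at 28.8 and 25.0 CPM, and oligodendrocytes, at 46.8 and 43.2 CPM. Its astrocyte level was 25.7% and 21.0% of the neuron level, inside the 12.6% to 34.1% and 10.8% to 38.5% spanned by single neuron markers there. The WT astrocyte level rested on 29 UMIs and was 7.28 CPM without doublet removal and 15.1 CPM at 1000 UMIs per nucleus. Cadm4, known in peripheral nerve as the glial partner of axonal Cadm proteins, was higher in oligodendrocytes (107 and 89.4 CPM), astrocytes (83.3 and 77.5 CPM) and oligodendrocyte precursors (126 and 114 CPM) than in neurons (47.9 and 41.7 CPM). Committed oligodendrocyte precursors held 239 CPM of Cadm4 in WT and 153 CPM in CCI. Cadm2 in astrocytes was 116% and 149% of its neuron level, and in oligodendrocytes 51.4% and 69.1%, above the highest single neuron marker there (42.8% and 44.7%).

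Between the libraries, Cadm2 was lower in CCI in each of the 8 classes compared, except that the direction turned in oligodendrocytes, to 0.07, when nuclei were thinned to equal depth. The log2 ratio of CCI to WT in dopaminergic neurons was -0.586 (-0.618 to -0.554), just past 1.5-fold (-0.53, short of it, without doublet removal). Cadm2 was the only one of the 9 genes past that line there. Cadm4, with few counts, fell just short of the line at -0.568 and passed it in 3 of 12 alternative runs. Over all genes tested in that class, 6.88% of 12608 were over 1.5-fold lower and 10.5% over 1.5-fold higher. In the other neurons the Cadm2 ratio was -0.41 (-0.43 to -0.40), where none of the 9 genes and 10.9% (higher) and 8.52% (lower) of all genes were past 1.5-fold. By group it was -0.53 in GABAergic, -0.31 in Slc17a-high and -0.29 in mixed neurons, none past 1.5-fold. Astrocytes had -0.23, oligodendrocytes -0.16 and oligodendrocyte precursors -0.28. The change in dopaminergic neurons was 0.17 log2 units further down than in other neurons (difference -0.17, -0.21 to -0.13). The size of this difference depends on the nuclei compared. The changes were -0.99 and -0.40 with the transcript gate, -1.01 and -0.38 with shared subclusters weighted equally, and -0.53 and -0.40 without doublet removal. Other neurons also differed in make-up: subcluster 14, led by Hcrt, held 7 WT and 287 CCI nuclei, and mixed subcluster 0 held 1809 and 739. Among 25 neuron subclusters with at least 20 nuclei in each library, the interval lay below 0 in 21 and above 0 in 1, Slc17a-high subcluster 21, at 0.38 (0.19 to 0.58).

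The Cadm2 difference in dopaminergic neurons depends on which of them are set against each other. The Sox6-rich sets gave -0.62 (-0.66 to -0.58), subcluster 6 alone -1.10 (-1.25 to -0.95) with 27 CCI nuclei, and subcluster 7 alone -0.87 (-0.94 to -0.79). The 2 dopaminergic subclusters shared by the libraries, weighted equally, gave -1.01. Among CCI dopaminergic neurons 261 of 382 nuclei were Sox6-rich, against 492 of 827 in WT. Median depth was 2113 UMIs in WT and 8692.5 UMIs in CCI dopaminergic neurons, and counts thinned to equal depth gave -0.63 (-0.71 to -0.55).

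**Figure D5:**
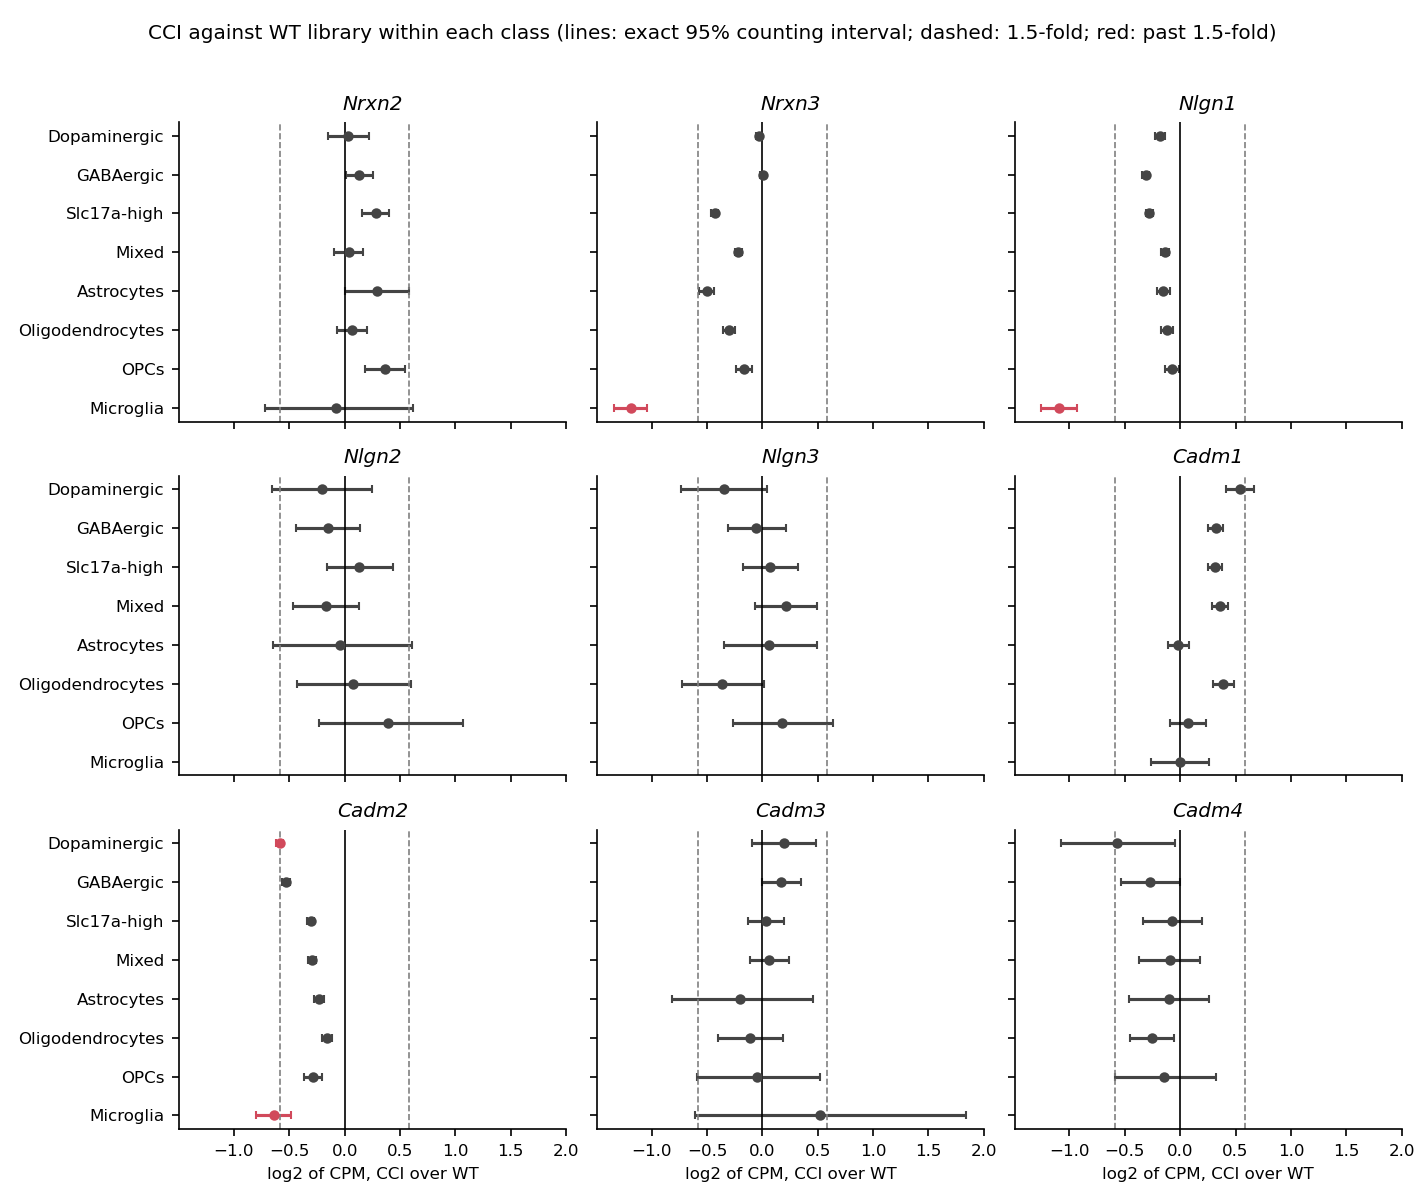
Log2 ratio of CCI over WT (horizontal axis) in each class (vertical axis) for each gene, with exact 95% counting intervals; dashed lines mark 1.5-fold, red points lie past it, and genes under 20 UMIs in a class are left out. Cadm2 lies left of 0 in all 8 classes, and microglia hold 3 of the 4 points past 1.5-fold.

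Cadm1 differed the other way in neurons. Its CCI to WT ratio was 0.54 (0.42 to 0.67) in dopaminergic, 0.32 in GABAergic, 0.31 in Slc17a-high and 0.36 in mixed neurons and 0.39 in oligodendrocytes, all under 1.5-fold, while astrocytes had -0.02 (-0.11 to 0.08). In each dopaminergic set taken alone it passed that line, at 0.62 (0.45 to 0.79) in Sox6-rich and 0.63 (0.44 to 0.82) in Sox6-poor neurons. Of the 25 shared neuron subclusters, 14 had a Cadm1 interval above 0 and 1 below it. Nlgn1 was lower in CCI, with ratios of -0.14 to -0.31 in the 4 neuron groups, and 17 of 25 subcluster intervals lay below 0 and none above it. Nrxn3 had ratios of -0.03 in dopaminergic and 0.00 in GABAergic neurons, but -0.25 in Sox6-poor neurons. In neurons chosen by the transcript gate the Nrxn3 ratio was -0.61, past 1.5-fold. That gate compares unlike sets, since 368 of its 986 CCI neurons lay in the dopaminergic clusters, against 771 of 917 in WT. Nrxn3 was lower in Slc17a-high neurons (-0.43, -0.46 to -0.40) and astrocytes (-0.50, -0.57 to -0.43). Under the alternative runs the Slc17a-high ratio ran from -0.55 to -0.17. Of the 25 shared neuron subclusters, 13 had a Nrxn3 interval below 0 and 2 above it. The latter were Slc17a-high subclusters 15 (0.54) and 21 (0.27), while Slc17a-high subcluster 23 was at -1.02. No gene of the 9 was past 1.5-fold in GABAergic, Slc17a-high or mixed neurons, astrocytes, oligodendrocytes or oligodendrocyte precursors; over all genes, the shares past it in GABAergic neurons were 13.2% higher and 7.54% lower, in Slc17a-high neurons 12.9% and 9.35%, in mixed neurons 8.99% and 6.87%, in astrocytes 15.5% and 8.54%, in oligodendrocytes 12% and 6.55%, and in oligodendrocyte precursors 15% and 8.98%. The astrocytes of the 2 libraries were mostly different clusters (cluster 5 with 1127 WT and 107 CCI nuclei, cluster 4 with 136 and 1374), as were the oligodendrocytes (cluster 2 with 3261 and 507, cluster 3 with 136 and 1949).

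In microglia, 3 of the 6 genes with enough UMIs were over 1.5-fold lower in CCI and none higher, against 17.8% lower and 25% higher of 6981 genes. Nrxn3 went from 3078 to 1350 CPM (-1.19, -1.34 to -1.04), Nlgn1 from 2572 to 1206 CPM (-1.09, -1.25 to -0.93) and Cadm2 from 2430 to 1557 CPM (-0.64, -0.80 to -0.49). Without doublet removal CCI microglia held 2145 CPM of Nrxn3, the Nrxn3 ratio was -0.63, and the Cadm2 ratio was -0.47, short of 1.5-fold, as it also was at clustering resolution 0.5. The summed neuron markers, all 8 detected, were at 54.1% of their neuron level in WT microglia and 32.2% in CCI microglia, and genes longer than 300 kb, as these 3 genes are, had a median ratio of -0.51 there, with 45.3% of them over 1.5-fold lower. Their part in the result was not tested. Cadm1 in microglia was at 775 and 774 CPM, a log2 ratio of 0.00 (-0.26 to 0.26).

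The partners of these genes were taken from a list of 71 genes, all of them found. Among the postsynaptic and secreted partners of neurexins, 10 of 16 tested were over 1.5-fold lower in dopaminergic than in other WT neurons and 3 higher, and in CCI 10 of 17 were lower and 2 higher, with median log2 ratios of -1.03 and -0.88. Over all genes, 22.5% were lower and 10.8% higher in WT, and 23.9% and 11.3% in CCI. Lrrtm4, a leucine-rich repeat partner, was at 1348 CPM in dopaminergic against 4192 CPM in other WT neurons, and at 1277 against 3680 CPM in CCI. Nxph1, a secreted neurexophilin, stood at 116 against 951 CPM and 144 against 904 CPM. Both are among the partners with the most UMIs, and each was over 1.5-fold lower in dopaminergic neurons in both libraries.

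Transcripts of both MDGA genes, whose proteins bind neuroligins and block their contact with neurexins, were lower in dopaminergic than in other neurons. Mdga2 stood at 1117 against 2731 CPM in WT and 1141 against 2706 CPM in CCI, and Mdga1 at 6.27 against 32.1 CPM and 4.99 against 36.7 CPM. The dopaminergic Mdga1 levels rest on only 12 UMIs in WT and 18 in CCI, with log2 ratios of -2.36 (-3.33 to -1.53) and -2.88 (-3.64 to -2.21). Of 25 scaffolds and adaptors, 1 was higher and 5 lower in WT, and 1 and 3 in CCI. Over all genes, 10.8% were higher and 22.5% lower in WT, and 11.3% and 23.9% in CCI. Dlg2, which encodes a postsynaptic density scaffold, was at 1914 against 3826 CPM in WT and 2093 against 3528 CPM in CCI, while Magi2 (-0.20 and -0.17) and the inhibitory scaffold Gphn (-0.49 and -0.54) stayed within 1.5-fold. Of 27 other synaptic adhesion genes, 13 were lower and 1 higher in WT, and 12 and 2 in CCI, where the shares over all genes are those just given, with Ptprd at -1.13 and -1.39, Lrrc4c at -1.78 and -1.54, and Tenm2 at -0.63 and -0.41. Between the libraries, 1 of 14 partners was over 1.5-fold higher in CCI dopaminergic neurons and none lower, no scaffold and neither MDGA gene was past that line, and 1 of 26 other adhesion genes was lower, against 10.5% of all genes higher and 6.88% lower.

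Profiles were taken over 35 neuron subclusters and clusters of other cells with at least 20 nuclei in each library. Astrocytes and oligodendrocytes each entered as several clusters. The WT and CCI profiles of log2(CPM + 10) had a Pearson r of 0.96 for Nrxn3, 0.92 for Nlgn1, 0.86 for Cadm2 and 0.80 for Cadm1, and of 0.26 for Nlgn2, the gene with few counts. Points of 1 library share its depth, and these values are descriptions. By the lower r of the libraries, the profile of Cadm2 was most like those of Cntn1 (0.66), Arhgef10l (0.58) and Frmd4a (0.56). That of Nrxn3 was like Kcnd3 (0.70) and Sgcd (0.67), that of Nlgn1 most like Gria2 (0.84), Acp1 (0.78) and Astn1 (0.77), and that of Cadm4 most like Nkx2-2os (0.73), Ugt8a (0.69) and Aatk (0.68). Cadm3 had the closest neighbours, Snhg14 (0.88), Ube3a (0.87) and Clstn3 (0.87). The highest values for Cadm1 were 0.58 with Plcb1, and for Nrxn2 0.64 with Qpct.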

How the data were processed

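The authors deposited UMI counts per gene and barcode of 2 libraries, made with Cell Ranger 7.1.0 per the file headers, on build mm10 per the submitters' processing notes. The WT library held 14114 barcodes and 18581333 UMIs, the CCI library 13736 and 68376220. Barcodes with at least 200 genes, 500 UMIs and at most 20% mitochondrial UMIs were kept, and Scrublet calls (1370 and 963) removed (Scanpy 1.11.5). Leiden clusters (resolution 1.0, leidenalg 0.10.2) took names from marker genes. The clusters did not use the 9 genes or the 71 partners. The members and lists were chosen with earlier results of these data known, and the transmitter groups after the clusters were seen. Counts were summed per library and class. CPM carry exact Poisson intervals, ratios exact conditional 95% intervals and shares exact Clopper-Pearson intervals (SciPy 1.17.1). They cover counting error only. Called means past 1.5-fold with at least 20 UMIs. The ratio code was tested on simulated data. All 9 genes are named, with the 3 genes of most UMIs per partner role and the 3 most alike profiles among genes of at least 500 UMIs, for genes on which a result turns. Some items that these rules name are not reported here. Alternatives are given at the end.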

Additional observations from a re-analysis of the deposited data

How the results depend on the processing

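The log2 ratio of Cadm2 in dopaminergic over other neurons (1.13 in WT, 0.95 in CCI) was 1.09 in WT without doublet removal, 1.04 and 0.45 with neurons gated by at least 2 against 0 UMIs of Th, Slc6a3, Slc18a2 and Ddc, 1.06 and 0.89 at 1000 UMIs per nucleus, and 1.21 and 1.03 with trimmed-mean scaling. The gate ended the 1.5-fold call of Cadm2 and, at -0.15, of Cadm1 in CCI, where it took 986 nuclei of which 368 were in the dopaminergic class, against 771 of 917 in WT. With it the number of the 9 genes called in CCI was 1 higher and 1 lower instead of 2 and 2. In WT the gate, trimmed-mean scaling and no doublet removal each left 2 lower instead of 3. The Cadm2 ratio of CCI to WT in dopaminergic neurons (-0.59) was -0.53 without doublet removal, -0.99 with the gate, -0.63 at equal depth and -1.01 with shared subclusters weighted equally. In other neurons (-0.41) it was -0.40, -0.47 and -0.38 under the last 3. Of the 13 ratios of the 9 genes past 1.5-fold between libraries or between dopaminergic and other neurons, all kept their sign under each alternative run. Dopaminergic, GABAergic and Slc17a-high neurons were set against each other under the settings of the report only. At resolution 2.0 microglia gave no value. Of 1420 class levels recomputed, 8 moved by over 1.5 times, among them Nrxn3 in CCI dopaminergic neurons, from 11889 to 7500 CPM with the gate. Leaving out barcodes shared by the libraries, added after seeing the data, left these 4 Cadm2 ratios within their intervals. No paired analysis was possible because each group has 1 library. Depth limits Nlgn2, Nlgn3, Cadm3 and Cadm4, with 59 to 151 UMIs in WT dopaminergic neurons.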
